A study of Mus musculus with 6 samples.

Results

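Topoisomerases cut and rejoin DNA to release the twist and the tangles that transcription and replication leave behind, and for a moment each enzyme is bound to the DNA it has cut. SN38, the active form of irinotecan, holds topoisomerase I in that cleavage complex. The genes described here are the 6 mouse topoisomerase genes Top1, Top1mt, Top2a, Top2b, Top3a and Top3b, together with Tdp1, Tdp2 and Rmi1, 9 genes in all of the 24190 that the count table lists. They were chosen by name, with earlier results of these data known. TDP1 and TDP2 are phosphodiesterases that release trapped topoisomerase from DNA, TDP1 mainly from 3′ ends and TDP2 mainly from 5′ ends, and RMI1 is the partner that TOP3A needs to resolve joined DNA molecules. All 9 passed the expression filter, which kept 14692 genes, and the lowest count of any of them in any library was 320.

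RNA was sequenced from MTO54 parental organoids, a line of mouse tumor organoids (MTOs) derived from a primary intestinal tumor with engineered alterations, among them in Apc and Trp53, which controls and treated cultures share. The 3 control cultures received complete stem cell medium. The 3 treated cultures received Folfiri, that is 5FU (50 μg/μl, the unit as the labels give it) plus SN38 (100 nM), for 2 days, starting 2 days after seeding of single cells. This duration is that of the labels, and a figure legend of the study names a longer one. No culture received 5FU or SN38 alone, so the effects of these drugs cannot be told apart. One organoid line stands behind all 6 libraries, so the replicates measure the spread between its cultures.

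Totals were between 22103591 and 30098210 counts per library. TMM factors, which adjust for library composition, ran from 0.880 to 0.966 for the control and from 1.10 to 1.11 for the Folfiri libraries. Over all tested genes the log2 fold changes had a median of 0.02, or of 0.30 when libraries were scaled by total counts only. Control replicate 1 stood apart from the other 2 controls, with a chi-square per degree of freedom of 23.7 and 22.4 against them, compared with 3.84 between replicates 2 and 3. Folfiri replicate 3 stood apart to a lesser degree, at 12.3 and 11.9 against the other 2 treated libraries and 3.55 between those. Without it the log2 fold change of Top1 was 0.42 in place of 0.34, and 8 of the 9 genes described below kept their calls, all but Tdp1. The share of counts on mitochondrially encoded genes was 2.09 to 2.36% in controls and 3.95 to 4.44% after Folfiri, and its part in the results below was not tested. The 8 epithelial markers were all present, and their summed level was 5976 to 6945 CPM (counts scaled to a common library total and adjusted by the TMM factor) in controls and 4817 to 4991 CPM after Folfiri. The sums were 28.0 to 32.1 CPM in controls and 34.4 to 36.6 CPM after Folfiri for 11 immune markers, and 1.08 to 1.44 CPM and 2.06 to 2.45 CPM for 7 fibroblast markers. For 4 endothelial markers they were 72.2 to 124.6 CPM and 65.7 to 76.4 CPM, nearly all of it Cdh5. Csf1r, Itgam, Col3a1, Pdgfrb, Thy1 and Kdr had 0 counts in every control library and stayed at or under a mean of 0.0850 CPM after Folfiri. Cd68, which makes up most of the immune sum, was at 23.6 CPM in controls and 20.5 CPM after treatment and was not called. Other members of these lists rose by edgeR's test, Cd14 from 6.31 to 12.8 CPM, Ptprc from 0.396 to 1.06, Fcer1g from 0.0819 to 0.537, Pdgfra from 0.397 to 1.14 and Dcn from 0.0240 to 0.694, while Col1a1 fell from 0.842 to 0.301 CPM. The part of other cell types in the results was not tested.

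After Folfiri, Top2a and Top2b, the topoisomerases that pass a DNA duplex through another, fell 3.14-fold and 3.50-fold, and Tdp2, whose product clears their trapped complexes, fell 2.28-fold. Top1, the target of SN38, rose 1.26-fold. Top3b rose 2.05-fold, Top3a 1.33-fold and Rmi1 1.44-fold, whereas Top1mt fell 1.24-fold and Tdp1 1.21-fold. By edgeR's quasi-likelihood test on 3 against 3 libraries, calling an adjusted p (Benjamini-Hochberg) under 0.05, 4 of the 9 genes rose and 5 fell. Of all tested genes 40.3% were higher and 38.8% lower, 79.1% in either direction, so a call alone does not set these genes apart. A called log2 fold change of at least 1 in either direction was found for 4 of the 9, Top2a, Top2b, Tdp2 and Top3b, and for 36.3% of all tested genes. Log2 fold changes of the 9 genes had a median of -0.28, with extremes of -1.81 for Top2b and 1.04 for Top3b. With scaling by total counts only, 4 were higher and 3 lower, the calls of Top1mt and Tdp1 being lost. Of all tested genes 49.8% were higher and 28.9% lower under that scaling, and the counts given below with total counts only are to be read beside these shares. No gene of the 9 changed direction under that scaling. Without control replicate 1 the log2 fold changes were -1.77 for Top2a, -1.78 for Top2b, -1.29 for Tdp2, 1.10 for Top3b, 0.48 for Top3a, 0.34 for Top1 and -0.32 for Top1mt, and these 7 kept their calls, as did Rmi1 at 0.70. Tdp1 lost its call there, at -0.14.

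**Figure D1:**
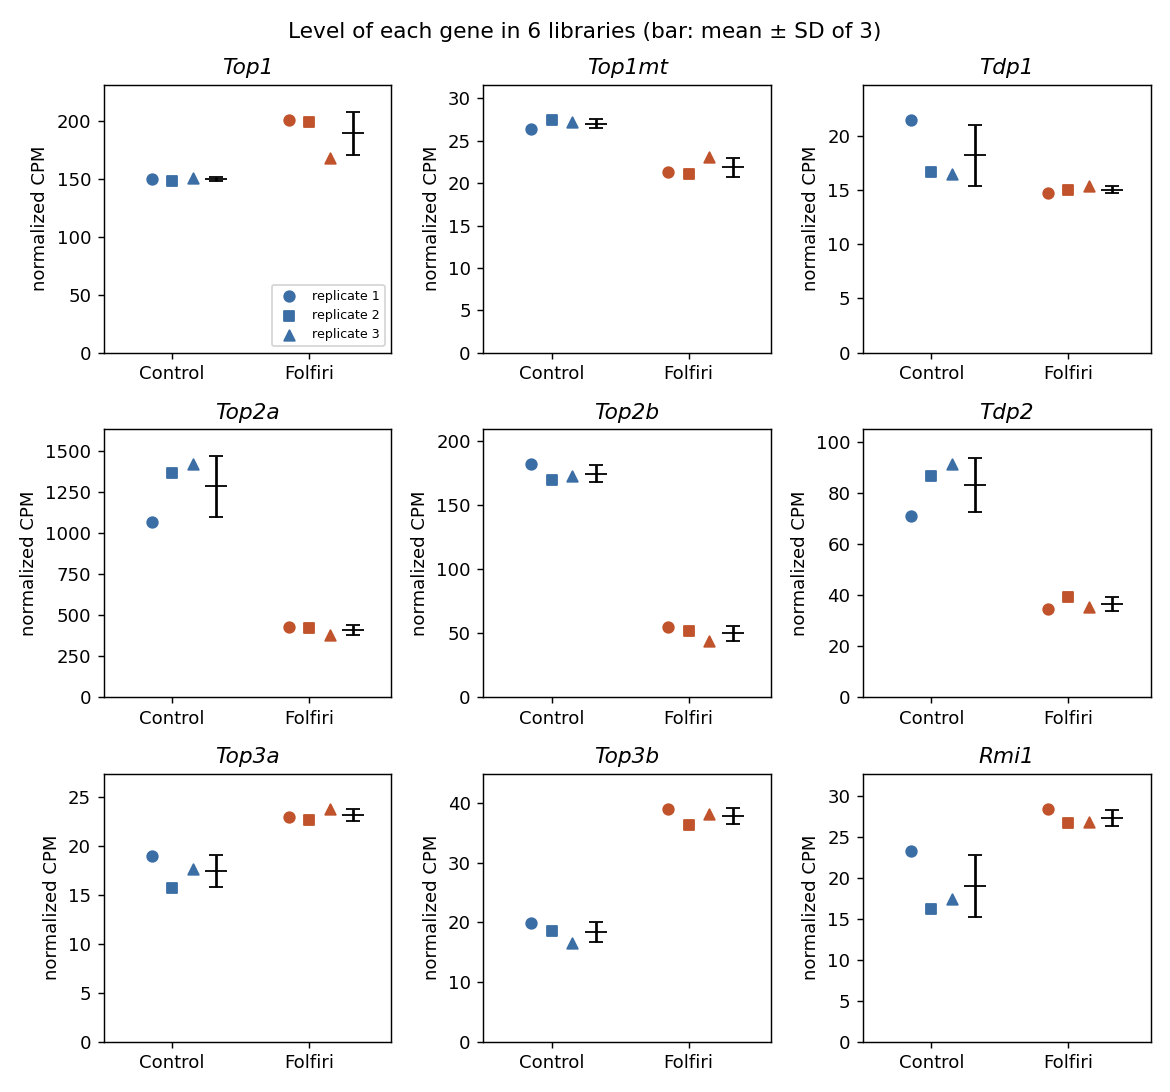
Normalized CPM (vertical axes, starting at 0) of each of the 9 genes in the 3 control and 3 Folfiri libraries, with 1 point per library and a bar for the mean ± SD of 3. Folfiri libraries of Top2a, Top2b and Tdp2 lie far under the controls, those of Top3b far above, and for Tdp1 and Rmi1 control replicate 1 is the high control.

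Top2a (ENSMUSG00000020914) lies on chromosome 11 of GRCm38 from 98992943 to 99024189, on the minus strand. It encodes the topoisomerase II of dividing cells, which untangles sister chromatids before they separate. Its level was 1069, 1364 and 1417 CPM in control replicates 1, 2 and 3 and 427, 421 and 376 CPM in Folfiri replicates 1, 2 and 3. The groups did not overlap, which was the case for 81.4% of all tested genes, and control replicate 1 was the lowest control. On the log2 scale the fitted change was -1.65 (SE 0.12, edgeR adjusted p = 3.84e-07). In bulk RNA, fewer cells that express a gene and less of its RNA per cell cannot be told apart.

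Top2b (ENSMUSG00000017485) lies on chromosome 14 from 16365179 to 16435462, on the plus strand. Its product is the topoisomerase II that non-dividing cells also carry, and it acts at promoters and at the anchors of chromatin loops. Levels were 182, 169 and 173 CPM in the controls and 54.5, 51.6 and 43.6 CPM after Folfiri. The controls lay within a narrow range and each was over 3-fold above every treated library. Its log2 fold change, -1.81 (SE 0.09, edgeR adjusted p = 3.81e-08), was the lowest of the 9 genes, and 6.17% of all tested genes had a lower one. Rarb, a retinoic acid receptor gene on the opposite strand, shares 1793 exonic bases with Top2b, and the library kit does not mark strand, so reads of the shared bases cannot be told apart. Rarb had 0, 1 and 2 counts in the controls and 54, 63 and 77 counts after Folfiri, against 1436 or more for Top2b.

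Counts of Top2a were 5.88, 8.05 and 8.19 times those of Top2b in the controls and 7.84, 8.17 and 8.62 times after Folfiri. The log2 ratio was 2.87 ± 0.27 and 3.04 ± 0.07 (SD, n = 3 each), a difference of 0.17 (SE 0.16) between groups whose values overlapped (p = 0.5 by an exact two-sided permutation test, adjusted p = 0.5 over 6 ratios). With 3 against 3 libraries this test cannot go below 0.1, so it does not show that the paralogs fell alike. Such a ratio is taken within a library and does not depend on how libraries are scaled to each other. Without control replicate 1, whose ratio was the lowest, the difference was 0.01, and with any other single library left out it was at most 0.25.

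For Top1, Top2a, Top2b and Top3b the sequence before the start of the gene is shown, to set the paralogs that fell beside a pair of topoisomerase genes that rose. The sequences are RefSeq's on GRCm38.p6, and 6 of the 9 genes have an entry in the promoter table. Each runs 5′ to 3′ on the strand of its gene and stops where the GENCODE gene model begins. Positions are chr11:99024190-99024439 (minus strand) for Top2a, chr14:16364956-16365178 (plus strand) for Top2b, chr2:160645647-160645887 (plus strand) for Top1 and chr16:16870486-16870735 (plus strand) for Top3b. Capitals mark matches on either strand to CCAAT (the letters of the box that NF-Y binds, ATTGG on the other strand), to TTTGAA (a cell cycle homology region, or CHR, TTCAAA on the other strand) and to GGGCGG (a GC box, CCGCCC on the other strand). None of these matches overlap each other.
Top2a: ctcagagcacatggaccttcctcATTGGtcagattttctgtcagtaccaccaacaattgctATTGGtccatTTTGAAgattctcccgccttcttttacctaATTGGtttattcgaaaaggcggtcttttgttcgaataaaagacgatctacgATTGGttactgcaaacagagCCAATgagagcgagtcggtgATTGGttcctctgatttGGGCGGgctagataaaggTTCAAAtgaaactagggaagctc
Top2b: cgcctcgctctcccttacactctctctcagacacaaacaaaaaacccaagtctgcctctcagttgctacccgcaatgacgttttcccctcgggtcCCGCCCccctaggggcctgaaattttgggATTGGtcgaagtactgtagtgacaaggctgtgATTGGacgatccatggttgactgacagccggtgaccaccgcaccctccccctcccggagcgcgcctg
Top1: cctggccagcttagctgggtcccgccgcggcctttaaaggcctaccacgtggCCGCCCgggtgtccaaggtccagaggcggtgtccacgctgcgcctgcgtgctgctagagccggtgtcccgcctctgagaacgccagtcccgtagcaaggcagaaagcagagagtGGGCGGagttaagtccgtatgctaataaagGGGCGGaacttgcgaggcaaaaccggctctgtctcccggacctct
Top3b: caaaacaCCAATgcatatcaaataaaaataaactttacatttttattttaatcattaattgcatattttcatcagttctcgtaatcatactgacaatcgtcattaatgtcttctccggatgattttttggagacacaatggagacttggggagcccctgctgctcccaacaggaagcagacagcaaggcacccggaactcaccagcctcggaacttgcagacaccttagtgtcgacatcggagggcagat

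In the 250 bases before the RefSeq start, Top2a had 6 matches to CCAAT, 2 to TTTGAA and 1 to GGGCGG. Of 32851 windows of that length in the table, 33.8% held CCAAT at least once, and 19 of them, or 0.0578%, held 6 or more matches. TTTGAA was in 16.0% of windows and GGGCGG in 32.7%. Top2b had 2 matches to CCAAT, as 10.1% of windows had 2 or more, and 1 to GGGCGG. Top1 had 3 matches to GGGCGG and Top3b had 1 to CCAAT. Rmi1, a gene that rose, had 2 matches to CCAAT and 1 to GGGCGG in the first of its 2 entries and none in the other, and Tdp1 had 1 to GGGCGG, 1 to TTTGAA and 2 to the ETS letters CCGGAAG in its window. Of the genes with an entry, Top2a and Tdp1 held TTTGAA, and Top2b, Top1, Top3b and Rmi1 did not. The E2F letters TTTCCCGC and TTTGGCGC, in 0.895% and 0.417% of windows, the ETS letters CCGGAAG, in 6.91%, and the TATA box letters TATAAA, in 12.4%, were in none of the 4 windows printed. A match is a description of these letters and no evidence of binding in these organoids.

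Tdp2 (ENSMUSG00000035958) lies on chromosome 13 from 24831679 to 24842153, on the plus strand. Levels were 71.3, 86.8 and 91.4 CPM in the controls and 34.4, 39.5 and 35.6 CPM after Folfiri. Its controls followed those of Top2a, with replicate 1 the lowest in both genes. Its log2 fold change was -1.19 (SE 0.10, edgeR adjusted p = 1.65e-06), a smaller fall than that of either topoisomerase II gene. Counts of Tdp2 were 0.0570, 0.0566 and 0.0575 of the summed counts of Top2a and Top2b in the controls, against 0.0715, 0.0835 and 0.0848 in the treated libraries. The ratio was therefore nearly constant among controls and higher in every treated library. The difference in its log2 value was 0.48 (SE 0.08), and the exact two-sided permutation test gave p = 0.1, the smallest that 3 against 3 libraries allow (adjusted p = 0.15 over 6 ratios).

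Top1 (ENSMUSG00000070544) lies on chromosome 2 from 160645888 to 160722764, on the plus strand, and encodes the nuclear enzyme that relaxes DNA ahead of and behind polymerases by nicking a single strand. Levels were 151, 148 and 151 CPM in the controls and 201, 199 and 168 CPM after Folfiri. The controls differed little, and Folfiri replicate 3 was the treated library nearest to them. The fitted log2 fold change was 0.34 (SE 0.08, edgeR adjusted p = 0.00277). Scaled by total counts only it became 0.61, and its distance from the all-gene median was 0.32 under either scaling. A change of scaling moves all genes by nearly the same amount, so such an equality is given in advance.

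Top1mt (ENSMUSG00000000934) lies on chromosome 15 from 75657035 to 75678800, on the minus strand, and its product works on mitochondrial DNA. Levels were 26.4, 27.5 and 27.3 CPM in the controls, and 21.4, 21.1 and 23.1 CPM in the treated libraries. This is a change of -0.31 on the log2 scale (SE 0.08, edgeR adjusted p = 0.00498). The groups did not overlap, but with total counts only the log2 fold change was -0.03 (adjusted p = 0.752, edgeR). The distance of Top1mt from the all-gene median was -0.33 under either scaling. Counts of Top1 were 5.70, 5.39 and 5.54 times those of Top1mt in the controls and 9.42, 9.45 and 7.27 times after Folfiri. The ratio was higher in every treated library than in every control. Its mean log2 value differed by 0.64 between the groups (SE 0.13, exact two-sided permutation test, p = 0.1, adjusted p = 0.15).

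Tdp1 (ENSMUSG00000021177) lies on chromosome 12 from 99884517 to 99955219, on the plus strand. Levels were 21.5, 16.7 and 16.5 CPM in the controls and 14.8, 15.0 and 15.4 CPM after Folfiri. Control replicate 1 was well above the other controls, which were close to the treated libraries. The fitted log2 fold change, -0.28 (SE 0.12), passed narrowly (edgeR adjusted p = 0.0450), a call that was lost in 9 of 13 alternative fits. Without control replicate 1 it was -0.14 (adjusted p = 0.120, edgeR), while without Folfiri replicate 1, 2 or 3 it stayed at -0.26, -0.27 and -0.29 with an adjusted p of 0.117, 0.115 and 0.0836, and over all alternatives the adjusted p ran from 0.0234 to 0.948. Set against the enzyme whose complexes TDP1 clears, counts of Tdp1 were 0.143, 0.113 and 0.109 of those of Top1 in the controls, against 0.0733, 0.0752 and 0.0914 under Folfiri. All treated libraries had a lower ratio than all controls, with a log2 difference of -0.60 (SE 0.16, exact two-sided permutation test, p = 0.1, adjusted p = 0.15). The ratio of Tdp1 to Top1 thus went down while that of Tdp2 to the topoisomerase II genes went up.

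**Figure D2:**
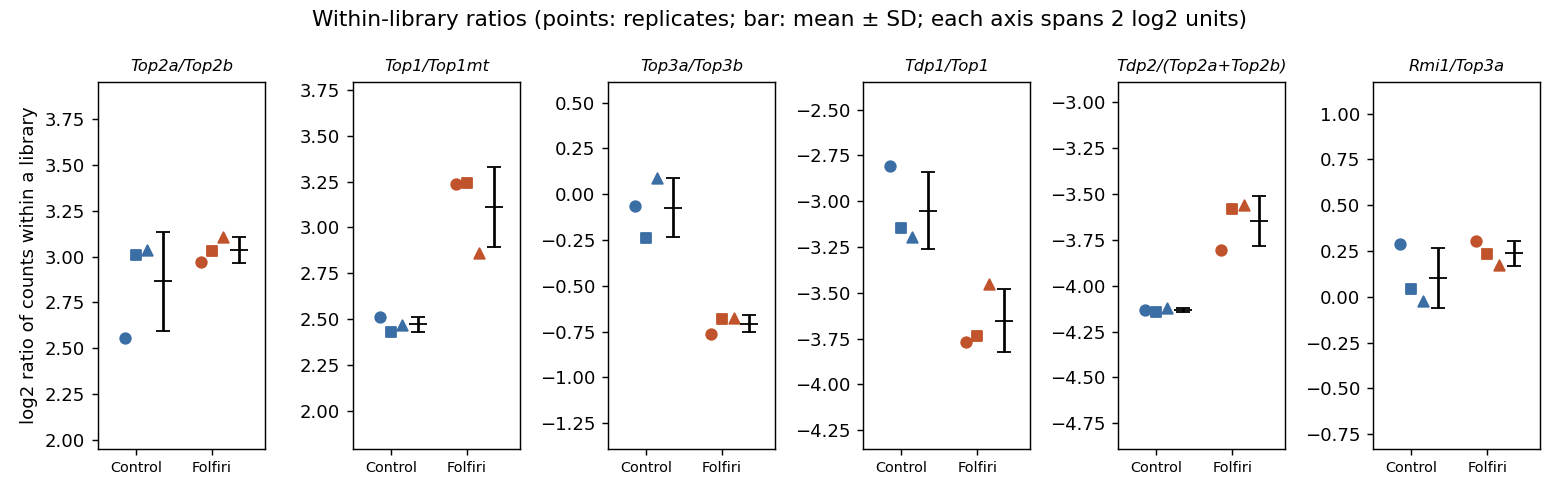
Log2 ratio of the counts of 2 genes within a library (vertical axes, each spanning 2 log2 units), with 1 point per replicate and bars for the mean ± SD of 3. Folfiri and control libraries are separate for Top1/Top1mt, Top3a/Top3b, Tdp1/Top1 and Tdp2/(Top2a+Top2b), and overlap for Top2a/Top2b and Rmi1/Top3a.

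Top3b (ENSMUSG00000022779) lies on chromosome 16 from 16870736 to 16892990, on the plus strand, and encodes a topoisomerase that acts on RNA as well as on DNA. Levels were 19.9, 18.6 and 16.6 CPM in the controls and 39.0, 36.4 and 38.1 CPM after Folfiri, so that each treated library was well above every control. Its log2 fold change was 1.04 (SE 0.09, edgeR adjusted p = 1.57e-06), above that of 81.3% of tested genes. Vpreb1, which shares 108 exonic bases with it on the opposite strand, had at most 3 counts in any library.

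Top3a (ENSMUSG00000002814) lies on chromosome 11 from 60740058 to 60777365, on the minus strand. TOP3A decatenates joined DNA molecules in a complex with BLM, RMI1 and RMI2, and a form of it works in mitochondria. Levels were 19.0, 15.7 and 17.6 CPM in the controls and 23.0, 22.7 and 23.8 CPM in the treated libraries, with no overlap. On the log2 scale Top3a rose by 0.41 (SE 0.09, edgeR adjusted p = 0.00224). Counts of Top3a were 0.955, 0.847 and 1.06 times those of Top3b in the controls and 0.590, 0.623 and 0.626 times after Folfiri. This is a log2 difference of -0.63 (SE 0.10, exact two-sided permutation test, p = 0.1, adjusted p = 0.15), and every treated library had a lower ratio than every control.

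Rmi1 (ENSMUSG00000035367) lies on chromosome 13 from 58402248 to 58411148, on the plus strand. Levels were 23.3, 16.2 and 17.4 CPM in the controls and 28.4, 26.6 and 26.9 CPM after Folfiri, with control replicate 1 again the high control. Rmi1 rose by 0.52 on the log2 scale (SE 0.13, edgeR adjusted p = 0.00299), and by 0.70 without control replicate 1. Hnrnpk, on the opposite strand, shares 330 exonic bases with Rmi1 and was far more abundant, at a mean of 733 CPM in controls and 434 CPM after Folfiri, so reads of Hnrnpk counted for Rmi1 cannot be told apart from its own. Hnrnpk itself had a log2 fold change of -0.76, opposite in sign to that of Rmi1. The ratio of Rmi1 to Top3a was 1.22, 1.03 and 0.985 in the controls, against 1.23, 1.18 and 1.13 under Folfiri. These values overlapped, with a log2 difference of 0.13 (SE 0.10, exact two-sided permutation test, p = 0.3, adjusted p = 0.36).

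To compare genes with each other, CPM was divided by the length of the longest annotated transcript in kb. On this scale Top2a was the highest of the 9 genes in both conditions, at 246 ± 35.9 (SD, n = 3 here and below) in controls and 78.2 ± 5.38 after treatment. In controls it was followed by Tdp2 at 42.5 ± 5.38 and Top1 at 38.9 ± 0.416, whose values overlapped, and then by Top2b at 16.9 ± 0.625 and Top1mt at 14.2 ± 0.299. Top3b, Top3a, Tdp1 and Rmi1 were lowest, at means from 4.50 to 5.23, and neighbours among these 4 overlapped. After Folfiri the order was Top2a, Top1 at 49.2 ± 4.83, Tdp2 at 18.6 ± 1.35, then Top1mt at 11.5 ± 0.582 and Top3b at 10.8 ± 0.380, which overlapped. Rmi1 at 6.48 ± 0.230 and Top3a at 6.19 ± 0.159 overlapped as well, and Top2b at 4.83 ± 0.547 and Tdp1 at 3.81 ± 0.0766 came last. Top2b thus went from rank 4 to rank 8. This order depends on the length chosen. With the length of all annotated exons Top2b went from rank 5 to rank 8, Top3b was at rank 9 in controls, and Tdp2 and Top1 did not overlap there.

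Among the 6 topoisomerase genes, Top2a made up 71.6, 76.8 and 77.3% of the summed level per length in the controls, against 48.8, 48.9 and 48.3% under Folfiri. The share of Top1 was 13.7, 11.3 and 11.2% in the controls, against 31.1, 31.4 and 29.2% under Folfiri. Top2a remained the largest single share in all 6 libraries, and the groups were separate for both genes. The shares are parts of one sum, so those of Top1 and Top2a are not independent. The level per length of Top1 itself went from 38.9 to 49.2. Top3b went from 1.63 ± 0.324% to 6.72 ± 0.502% and Top3a from 1.45 ± 0.287% to 3.87 ± 0.346%, while Top2b went from 4.77 to 6.15% in controls to 2.83 to 3.14% after treatment (mean ± SD with n = 3, or range). The share of Top1mt was 4.39 ± 0.405% and 7.18 ± 0.832%, higher after Folfiri although its own level was lower. The shares depend on length too. With the length of all annotated exons, the share of Top1 went from 7.72 ± 0.904% to 20.8 ± 0.989% and that of Top2a from 75.5 ± 3.14% to 52.0 ± 0.865%.

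**Figure D3:**
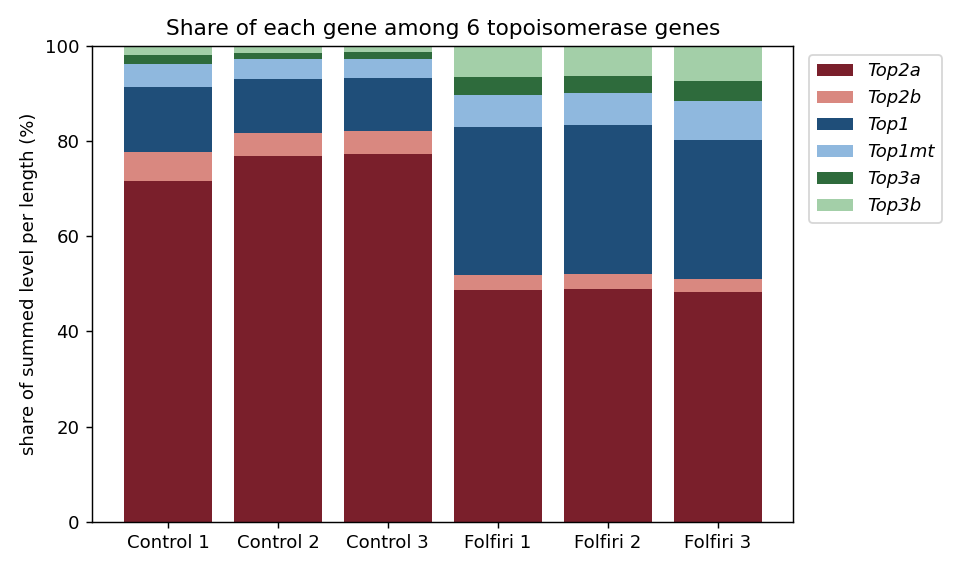
Share of each gene in the summed level per length of the 6 topoisomerase genes (vertical axis, percent), as 1 stacked bar per library. Top2a takes 71.6 to 77.3% in controls and 48.3 to 48.9% after Folfiri, and Top1 11.2 to 13.7% and 29.2 to 31.4%.

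By genomic span, Top1, Top2b and Tdp1 (76.9, 70.3 and 70.7 kb) are in the longest of 5 equal groups of tested genes, which starts at 60.3 kb. The median log2 fold change of that group was -0.23, with 49.0% of its genes lower and 29.5% higher after Folfiri, beside 38.8% and 40.3% of all tested genes. Top2b fell well beyond this median, Tdp1 was near it, and Top1 had the opposite sign. Top2a and Top3a (31.2 and 37.3 kb) are in the next shorter group, with a median of 0.11, Top1mt and Top3b (21.8 and 22.3 kb) in the middle one, with a median of 0.27, and Tdp2 and Rmi1 (10.5 and 8.90 kb) in the second shortest, with a median of 0.25. The shortest group, up to 4.90 kb, had a median of -0.35, with 49.4% lower and 29.5% higher, and holds none of the 9 genes. Each group held many genes called in either direction, and the part of span in these changes was not tested.

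The genes whose products work with the topoisomerases were examined by list, and the lists were drawn up with earlier results of these data known. Condensin loops and compacts mitotic chromosomes together with TOP2A. By edgeR's test all 8 condensin genes fell, with a median log2 fold change of -1.29, against 38.8% of all tested genes that were lower. Ncapg, a condensin I subunit, went from 168 ± 15.4 to 59.4 ± 1.75 CPM, a log2 fold change of -1.50, and Smc4, part of the ATPase core of all condensin, from 473 ± 54.2 to 173 ± 6.53 CPM, or -1.45 (SD, n = 3 each). With total counts only, 7 of the 8 were lower. Exons of Ncapg are overlapped by Lcorl on the opposite strand.

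Of 20 genes of G2 phase and mitosis, the part of the cell cycle in which Top2a RNA peaks, 19 were lower, 0 were higher and Birc5 was not called, with a median of -0.94, beside 38.8% of all tested genes lower and 40.3% higher. Mki67, a marker of cycling cells, went from 735 ± 34.1 to 246 ± 29.5 CPM, a log2 fold change of -1.58 that lies near that of Top2a. Hmmr, which encodes a protein of the mitotic spindle, had the lowest value of the list at -2.25, from 208 ± 18.7 to 43.8 ± 2.02 CPM. With total counts only, 18 were lower and 1 higher. Cohesin and CTCF, which hold the loop anchors where TOP2B cuts, had 5 of 8 genes lower and 0 higher, with a median of -0.50, against the same shares of 38.8% and 40.3% over all genes, although 4 were lower and 2 higher with total counts only, where 28.9% and 49.8% of all genes were. Rad21, a cohesin subunit, went from 740 ± 40.3 to 415 ± 11.4 CPM, a log2 fold change of -0.83, and Wapl, which unloads cohesin, had -0.68. Top2b at -1.81 fell further than any of these 8 genes.

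Among 9 helicases and partners of TOP3A and TOP3B, 4 were higher and 3 lower, with a median of 0.10. These counts are near the shares over all tested genes, 40.3% higher and 38.8% lower. In the BLM complex, Blm, its helicase, fell from 56.8 ± 2.57 to 33.6 ± 1.04 CPM, a log2 fold change of -0.76, while Rmi2 was higher at 1.40, as were Top3a and Rmi1. Rmi2 was named after its value was seen, as the remaining subunit of that complex. For TOP3B, its partner gene Tdrd3 had a log2 fold change of -0.16 and was not called (adjusted p = 0.154, edgeR), and Fmr1, whose product binds the same complex, fell by 0.60 on the log2 scale. Tdrd3 was likewise chosen after its value was seen. The RecQ helicase genes Recql4 and Recql rose by log2 fold changes of 1.57 and 1.42. Both share exonic bases with a gene on the opposite strand. For Recql this is Pyroxd1, over 37.7% of its exonic bases, with up to 322 counts against 66 to 489 for Recql. Reads of the shared bases cannot be told apart.

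The single-strand break pathway that takes over after TDP1 had 5 of 9 genes higher and 3 lower, with a median of 0.36, where 40.3% and 38.8% of all tested genes were. Parg, which removes poly(ADP-ribose), rose from 40.1 ± 2.35 to 67.5 ± 7.36 CPM, a log2 fold change of 0.75, and Xrcc1, the scaffold of the pathway, from 31.5 ± 1.68 to 52.2 ± 3.03 CPM, or 0.73. The ligase gene Lig3 had -0.61 and Aplf, which encodes a factor that binds poly(ADP-ribose), had -0.66. Exons of Lig3 are overlapped by Rffl on the opposite strand. With total counts only, 6 were higher and 1 lower, and the call of Lig3 was lost.

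Nucleases offer a route around the phosphodiesterases by cutting off the DNA that carries the trapped protein. Of 16 such genes and end-processing genes, 10 were higher and 3 lower, with a median of 0.54, against 40.3% of all tested genes that were higher. Exo1, a resection nuclease, rose from 9.01 ± 3.01 to 48.4 ± 2.45 CPM, or 2.41 on the log2 scale (SE 0.18, edgeR adjusted p = 5.05e-07). Slx4, the scaffold of several structure-specific nucleases, rose from 12.2 ± 2.49 to 42.2 ± 1.64 CPM, or 1.79. Mus81, whose nuclease docks on SLX4, went the other way, from 10.9 ± 2.06 to 4.92 ± 0.380 CPM, a log2 fold change of -1.16, and Rad50, of the MRE11 complex, had -0.82. Efemp2 overlaps Mus81 on the opposite strand. The counts with total counts only were again 10 higher and 3 lower.

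Proteins trapped on DNA are also marked with SUMO and ubiquitin and degraded. In this list of 16 genes 5 were higher and 7 lower, near the 40.3% and 38.8% of all tested genes, with a median of -0.03, and with total counts only 9 were higher and 5 lower. Zfp451, the SUMO ligase that works with TDP2, rose from 23.2 ± 1.79 to 53.1 ± 3.62 CPM, a log2 fold change of 1.20, in contrast to Tdp2. Sprtn, the protease that digests proteins crosslinked to DNA, rose from 31.8 ± 0.739 to 64.7 ± 0.0655 CPM, or 1.02 (SE 0.07, adjusted p = 3.17e-07, edgeR). Btbd1 and Btbd2, whose products bind TOP1, fell by 1.10 and 1.06 on the log2 scale. Of the 8 end joining genes that seal breaks after TDP2, 3 were higher and 3 lower, with a median of -0.07, again near those all-gene shares. Lig4, the end joining ligase, was at 1.64 and Dclre1c (Artemis), a nuclease that opens hairpins, at 1.23, while Nhej1 was at -0.74 and Xrcc4, the partner of LIG4, at -0.50. With total counts only, 4 were higher and 1 lower, and the call of Xrcc4 was lost. Suv39h2 overlaps Dclre1c and Tmem167 overlaps Xrcc4 on the opposite strand.

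**Figure D4:**
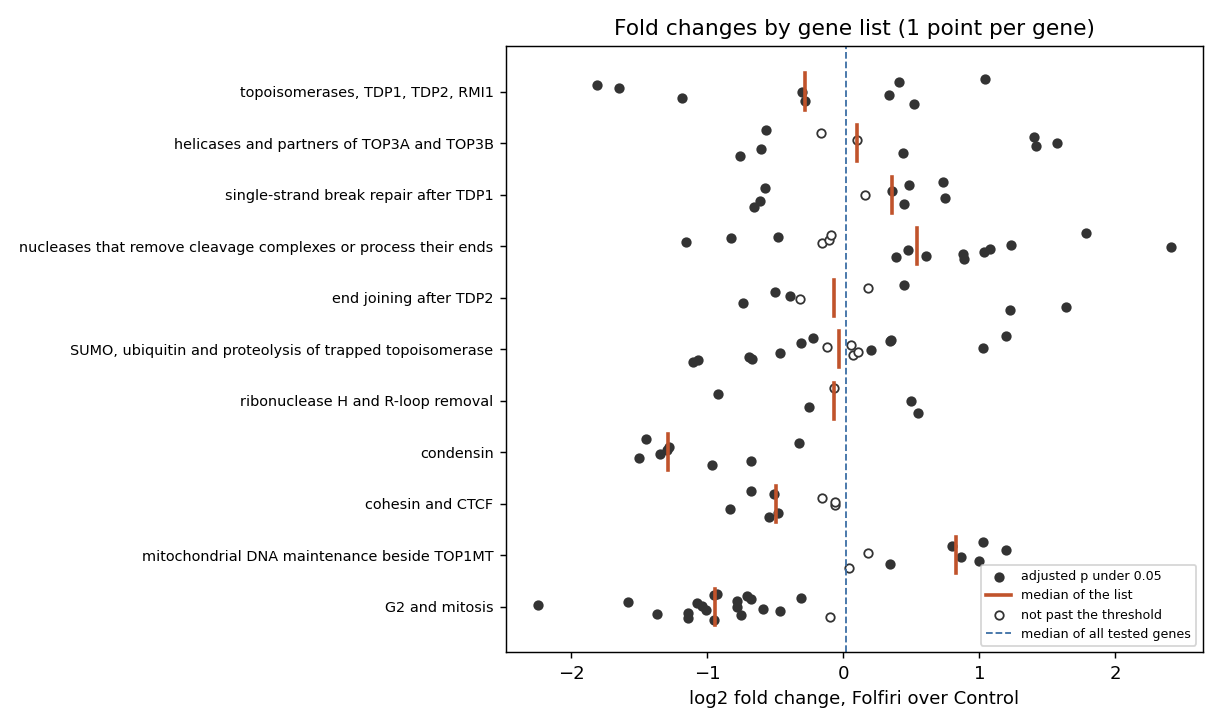
Log2 fold change after Folfiri (horizontal axis) of each tested gene in 11 lists (Spo11 is not drawn), with filled points for an adjusted p under 0.05 (edgeR), open points for the rest, a bar at each list's median and a dashed line at the median of all tested genes (0.02). Medians of these lists run from -1.29 for condensin to 0.83 for mitochondrial DNA maintenance, and the 9 genes of the top row spread from -1.81 to 1.04.

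Ribonuclease H and senataxin remove RNA from DNA, where TOP1 also acts. Of these 5 genes 2 were higher and 2 lower, near the 40.3% and 38.8% of all tested genes. Rnaseh1 and Rnaseh2b had log2 fold changes of 0.55 and 0.49, and Rnaseh2c had -0.92. Rnaseh2a had -0.25 and changed sign to 0.020 with total counts only. Without Folfiri replicate 2 its call was lost. Kat5 overlaps Rnaseh2c, Prdx2 overlaps Rnaseh2a and Dleu7 overlaps Rnaseh2b on the opposite strand.

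Beside TOP1MT, mitochondrial DNA is kept by its own polymerase, helicase and packaging proteins. Of 8 such genes 6 were higher and 0 lower, with a median of 0.83, beside 40.3% of all tested genes higher. Top1mt had -0.31. Twnk, the replicative helicase, went from 17.3 ± 6.38 to 35.6 ± 1.69 CPM, a log2 fold change of 1.03, and Tefm, an elongation factor, from 3.78 ± 1.08 to 8.79 ± 0.987 CPM, or 1.20. Mrpl43 overlaps Twnk on the opposite strand. Spo11, the topoisomerase-like enzyme of meiosis, had 5, 2 and 3 counts in the controls, against 15, 13 and 17 after treatment, fewer than any other partner gene named here. It was named for its role, although it is under the level that the other named partner genes had to reach.

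The genes most like Top1 and Top2a over the 6 libraries were sought among 9474 other tested genes, those averaging 10 CPM or more. The measure was the root mean square difference between log2 CPM values, each centred on the gene's own mean. For Top2a the nearest were G2e3 at 0.034, Dap at 0.044 and Ypel2 at 0.044, and 51 genes lay within 0.1. For Top1 they were Myh9 at 0.023, Atxn3 at 0.036 and Rab21 at 0.040, and 337 genes lay within 0.1. With 2 conditions, such likeness rests mostly on the size of the difference between them.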

How the data were processed

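Poly(A) RNA of 3 control and 3 Folfiri cultures was sequenced, with a library kit that does not mark strand. Per the labels and the methods, the authors aligned reads to GRCm38 with STAR (2.5.2), summarised them over GENCODE genes in Rsubread, and deposited the raw counts. The strand setting and the treatment of reads with several positions are not given in the sources used here. Symbols, positions and lengths came from GENCODE vM21 on the same build, which holds 24168 of the 24190 genes.

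Counts were tested with edgeR 4.0.16 in R 4.3.3 (default expression filter, TMM, quasi-likelihood test, Benjamini-Hochberg adjustment over 14692 genes, threshold 0.05). The SE of a log2 fold change was derived from the quasi-likelihood F statistic. The procedure was tested on simulated data. Ratios used a pseudocount of 0.5 and exact two-sided permutation tests, which cannot go below 0.1. The spread between cultures exceeded counting error in all replicate pairs.

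Named were the 9 genes, Mki67, up to 2 genes per direction in each list with the largest called change, separate groups and a mean of at least 1 CPM, and the 3 genes most like Top1 and Top2a. Rmi2, Tdrd3 and Spo11 were named outside this rule. The genes and lists were chosen with earlier results of these data known. One part of the genotype is not reported here. Alternatives were other scalings and filters, DESeq2 1.42.0, a replicate block, each replicate left out, other pseudocounts and lengths.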

Additional observations from a re-analysis of the deposited data

How the results depend on the processing

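The number of genes called stayed between 10503 and 12742 under other scalings, filters and tests, and between 11021 and 12312 with 1 replicate left out. Scaling by total counts only raised the share of higher genes among calls from 51.0% to 63.3%, with the median of all genes at 0.30, and among the partner genes 47 were higher and 43 lower in place of 36 and 53. Of the 9 genes, from 7 to 9 were called. Tdp1 accounted for the lost calls, together with Top1mt under total counts only. Rnaseh2a turned to a log2 fold change of 0.020 under that scaling. The gain in the share of Top1 among topoisomerases was 13.1 percentage points with the length of all exons in place of 18.5. Deviations from the group mean correlated at r = 0.03, -0.12 and 0.04 across genes for same-numbered control and Folfiri libraries. Different-numbered libraries gave values of like size, from -0.12 to 0.12. These values cannot decide whether same-numbered cultures were paired. With the replicate block 11499 genes in all, 8 of the 9 genes and 89 partner genes were called. The 6 ratios kept their sign in every alternative, but 3 against 3 libraries cannot pass the threshold in the exact test.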
